A study of Mus musculus with 6 samples.

Results

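Stat3, Socs3, Bcl3, Lrg1, Lcn2, Orm1 and Slpi, a set of 7 genes of STAT3 signalling and the acute-phase response, were followed across single neoplastic cells of mouse lung tumours. They are 7 of the 31055 features of the expression matrix, were matched by symbol, and were all detected. The genes were chosen by their measured levels in these same cells, in the contrasts between the cell gates and between GFP-positive and Stk11-positive cells. Their levels are therefore given as a description and no test was run. All 6 mice carried KrasLSL-G12D, Lkb1XTR/XTR and Rosa26LSL-tdTomato. Lkb1 is the product of Stk11, and XTR is a gene trap in the first intron that Cre turns into the reading orientation, so that the trapped transcript ends in GFP. Tumours were started by lentiviral Cre given through the trachea and grew for 20 weeks, and the labels do not name the promoter that drove Cre. The 3 Restored mice also carried FLPo-ERT2, a recombinase that excises the trap, and received tamoxifen in 4 mg doses over the last 2 weeks. The 3 NonRestored mice were a tamoxifen-treated and a vehicle-treated mouse without FLPo-ERT2 and a vehicle-treated mouse with it. Microdissected tumours were dissociated, and live tdTomato-positive cells negative for CD45, CD31, F4/80 and Ter119 were sorted for droplet sequencing of transcript 3′ ends.

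STAT3 is a transcription factor that Janus kinases phosphorylate when cytokines of the interleukin family around Il6 engage receptors containing gp130, the product of Il6st. Its known targets include Socs3, which feeds back on the same receptors, and genes of the acute-phase response, which is best known from liver and supplies the blood with proteins such as Lrg1, Orm1 and haptoglobin. In the lung, alveolar type II (ATII) cells secrete several of these proteins beside surfactant, and alveolar type I (ATI) cells form the thin surface for gas exchange. The transcript counts measure messenger RNA and not the phosphorylation of STAT3.

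The cells of all 6 mice came in 1 matrix, and no file used here gives the mouse of each cell. It was therefore treated as 1 sample, and Restored and NonRestored mice were not compared here. Counts of cell barcodes shared between libraries were not analysed here. Of 16017 cells, 12183 had at least 500 genes and at most 20% mitochondrial counts, and these held 257163522 unique molecular identifiers (UMIs). The gates were set per 10000 UMIs of a cell. ATII cells had at least 500 Sftpc, under 2 Hopx and under 50 Krt8 plus Krt18, and were split at 100 Lyz2 into 3429 Lyz2-high and 3546 Lyz2-reduced cells. ATI cells had at least 15 Hopx and under 50 Krt8 plus Krt18, and numbered 956. Keratin-high cells had at least 50 Krt8 plus Krt18, and numbered 1183. The remaining 3069 cells were outside the gates and included 125 endothelial, 175 fibroblast and 74 myeloid cells, set by their summed markers, which served to read background. Median depth was 24514 UMIs in Lyz2-high ATII, 18716 in Lyz2-reduced ATII, 11796.5 in ATI and 23490 in keratin-high cells. Levels are the summed UMIs of a gate scaled to 1000000 UMIs (CPM), with exact 95% Poisson intervals. These and all other intervals cover counting error only, not the spread between mice.

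The gates held few transcripts of leukocytes, endothelial cells and fibroblasts, and more of airway markers. Ptprc, the gene for CD45, was at 0.08 to 0.22 CPM in the 4 gates and at 358 CPM in the myeloid cells. The 8 endothelial markers summed to between 7.96 and 19.7 CPM in the gates and to 7649 CPM in the endothelial cells. Macrophage markers summed to between 5.69 and 26.8 CPM in the gates and to 30946 CPM in the myeloid cells. Neutrophil markers summed to between 1.27 and 24.6 CPM in the gates, nearly all of it Retnlg in the ATII gates. They summed to 1242 CPM in the myeloid cells, which held no Retnlg. The 8 fibroblast markers summed to between 10.0 and 55.2 CPM in the gates and to 55560 CPM in the fibroblasts. Lymphocyte markers summed to between 12.4 and 39.5 CPM, highest in keratin-high cells. Club cell markers summed to between 72.5 and 567 CPM in the gates, led by Cbr2, and to 3527 CPM outside them. Ciliated markers summed to between 384 and 1055 CPM, highest in ATI cells, and to 727 CPM outside the gates. Most of that sum was Tubb4b and Sec14l3, and Foxj1, the ciliated cell factor, was at 0.359 to 1.23 CPM in the gates. TdTomato, the Cre reporter, ran from 5739 CPM in Lyz2-high ATII to 10029 CPM in keratin-high cells and stood at 181 CPM in fibroblasts, 440 CPM in endothelial and 2324 CPM in myeloid cells.

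The sequence upstream of the RefSeq start is shown here for the 4 members whose levels differed most between gates or allele classes and which had a RefSeq entry, since inflammatory genes are often described by STAT, C/EBP and NF-kB motifs near their starts. Each is the 250 bases before the RefSeq start on GRCm38.p6, printed 5′ to 3′ in the direction of the gene, and capitals mark the matches to the 3 motifs searched. The windows are chr2:32387740-32387989 for Lcn2, chr17:56121947-56122196 for Lrg1, chr2:164356508-164356757 for Slpi and chr11:117969367-117969616 for Socs3, all on the minus strand. The gene spans given further on are from GENCODE, which starts these genes farther upstream, so the Lcn2, Slpi and Socs3 windows lie inside the GENCODE gene and the Lrg1 window overlaps it.
Lcn2: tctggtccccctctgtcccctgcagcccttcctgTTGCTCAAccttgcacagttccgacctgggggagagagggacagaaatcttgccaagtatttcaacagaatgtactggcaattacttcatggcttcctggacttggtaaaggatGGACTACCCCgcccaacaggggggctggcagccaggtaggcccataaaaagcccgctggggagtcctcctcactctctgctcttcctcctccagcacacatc
Lrg1: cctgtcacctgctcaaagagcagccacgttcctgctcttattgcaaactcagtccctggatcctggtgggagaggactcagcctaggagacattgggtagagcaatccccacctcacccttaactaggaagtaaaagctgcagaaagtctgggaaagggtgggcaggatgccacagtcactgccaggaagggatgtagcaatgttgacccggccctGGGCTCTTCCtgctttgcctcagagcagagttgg
Slpi: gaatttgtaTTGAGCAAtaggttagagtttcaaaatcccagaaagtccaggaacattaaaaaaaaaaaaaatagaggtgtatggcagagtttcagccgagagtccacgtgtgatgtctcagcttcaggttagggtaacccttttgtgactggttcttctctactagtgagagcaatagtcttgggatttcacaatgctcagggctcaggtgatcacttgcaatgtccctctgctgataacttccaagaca
Socs3: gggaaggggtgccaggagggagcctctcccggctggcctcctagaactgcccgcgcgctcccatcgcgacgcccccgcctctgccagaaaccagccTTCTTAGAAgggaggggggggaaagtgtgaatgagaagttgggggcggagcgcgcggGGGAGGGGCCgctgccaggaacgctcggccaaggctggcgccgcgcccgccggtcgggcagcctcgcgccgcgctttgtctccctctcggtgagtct
The motifs were TTCNNNGAA for STAT, TTGNNCAA for C/EBP and, for NF-kB, GGG and CC with 5 bases between them, searched on both strands. Socs3 held the STAT letters at 154 to 146 bases before its start, a pattern present in 7.02% of 32851 promoter windows of this length. Lcn2 held the C/EBP letters at 216 to 209 bases before its start and Slpi at 241 to 234 bases, against 5.65% of all windows. The NF-kB letters were in the Lcn2, Lrg1 and Socs3 windows and also in 45.8% of all windows, so they set these genes apart little. The 3 regulators had windows rich in CG dinucleotides, with 26 in Socs3, 19 in Bcl3 and 13 in Stat3. The secreted members had 3 in Lcn2, 2 in Lrg1 and 2 in Slpi, where the median window held 6. A match is a description of letters and not a binding site. Of the 7 members, 6 had an entry, all but Orm1.

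Stat3 (chr11:100885098-100939540 on GRCm38, minus strand), the transcription factor itself, was present in every gate. Its level was 137 CPM (135 to 140) in Lyz2-high ATII, 141 CPM (138 to 143) in Lyz2-reduced ATII, 90.3 CPM (87.0 to 93.7) in keratin-high and 78.2 CPM (73.5 to 83.1) in ATI cells. The ATII intervals overlapped, and the keratin-high and ATI intervals lay apart and below them. Stat3 was highest in the endothelial cells, at 235 CPM, and at 154 CPM in fibroblasts and 130 CPM in myeloid cells. ATII cells as a whole held 1.54-fold more Stat3 than keratin-high cells (1.48 to 1.60) and 1.78-fold more than ATI cells (1.67 to 1.89), so neither contrast reached the 2-fold used here to call a gene. Stat3 overlaps Stat5a on the opposite strand.

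Socs3 (chr11:117966079-117970047, minus strand), the feedback inhibitor of cytokine receptor signalling, separated the gates more than Stat3 did. It stood at 367 CPM (363 to 371) in Lyz2-high ATII, 299 CPM (295 to 303) in Lyz2-reduced ATII, 117 CPM (113 to 120) in keratin-high and 114 CPM (108 to 119) in ATI cells. The keratin-high and ATI intervals overlapped. Socs3 was 2.88-fold higher in ATII than in keratin-high cells (2.79 to 2.98) and 2.96-fold higher than in ATI cells (2.81 to 3.12). Outside the gates it reached 1860 CPM in endothelial and 486 CPM in fibroblast cells, above every tumour gate.

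Bcl3 (chr7:19808462-19822770, minus strand), a nuclear partner of NF-kB subunits, was the only member whose keratin-high level lay between those of the ATII gates. It was at 28.3 CPM (27.1 to 29.5) in Lyz2-reduced ATII, 25.3 CPM (23.5 to 27.1) in keratin-high, 21.8 CPM (20.8 to 22.8) in Lyz2-high ATII and 8.77 CPM (7.25 to 10.5) in ATI cells. The ratio of keratin-high to ATII was 1.02 (0.945 to 1.10), with a log2 ratio between −0.35 and 0.36 across the settings. ATI cells were 2.82-fold below ATII (2.35 to 3.42) and 2.88-fold below keratin-high cells (2.37 to 3.53). Bcl3 overlaps Gm16175 and Gm16174 on the opposite strand.

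Lrg1 (chr17:56119678-56122001, minus strand), a secreted leucine-rich glycoprotein, was close to an ATII gene among the tumour gates. It fell from 889 CPM (882 to 895) in Lyz2-high ATII to 424 CPM (419 to 429) in Lyz2-reduced ATII, 32.0 CPM (30.0 to 34.1) in keratin-high and 28.5 CPM (25.7 to 31.5) in ATI cells. The keratin-high and ATI intervals overlapped. ATII cells exceeded keratin-high cells 21.2-fold (19.9 to 22.6) and ATI cells 23.8-fold (21.5 to 26.4). Across the settings the log2 ratio to ATII ran from −5.35 to −3.66 for keratin-high and from −6.25 to −3.61 for ATI cells. Endothelial cells held more Lrg1 than any tumour gate, 2161 CPM, and fibroblasts held 27.2 CPM.

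Lcn2 (chr2:32384633-32388252, minus strand), which encodes the siderophore-binding protein lipocalin 2, showed the same order of the ATII gates at higher levels. It was at 2747 CPM (2736 to 2758) in Lyz2-high ATII, 1397 CPM (1388 to 1405) in Lyz2-reduced ATII, 111 CPM (106 to 117) in ATI and 92.6 CPM (89.3 to 96.1) in keratin-high cells. All 4 intervals lay apart. The fold of ATII over keratin-high cells was 23.0 (22.2 to 23.9) and over ATI cells 19.2 (18.2 to 20.2). The size of both depended on the settings. The log2 ratio to ATII ran from −5.83 to −3.59 for keratin-high and from −5.66 to −3.36 for ATI cells. Of the cells that should lack Lcn2, the endothelial cells were at 59.4 CPM, below both of these gates, and the fibroblasts at 102 CPM, where a single thinned cell held 51 Lcn2 UMIs of 5000.

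Orm1 (chr4:63344560-63348163, plus strand), a plasma glycoprotein of the acute phase, was low. It was at 24.9 CPM (23.8 to 25.9) in Lyz2-high and 25 CPM (23.9 to 26.2) in Lyz2-reduced ATII, 3.45 CPM (2.52 to 4.6) in ATI and 2.97 CPM (2.39 to 3.64) in keratin-high cells. Neighbouring gates in this order overlapped, and the step lay between ATII and the other gates, 8.40-fold to keratin-high (6.83 to 10.5) and 7.23-fold to ATI cells (5.41 to 9.90). No Orm1 UMI was found in endothelial or fibroblast cells, which allows up to 1.90 and 0.929 CPM at the limit of 3 counts. Orm1 has close paralogs, Orm2 and Orm3, and reads shared with them could be split by the counting, so its values are uncertain.

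Slpi (chr2:164354070-164389095, minus strand), an inhibitor of neutrophil elastase released at mucosal surfaces, was highest in Lyz2-reduced ATII when all cells of a gate were pooled. It stood at 424 CPM (420 to 429) there, 326 CPM (322 to 329) in Lyz2-high ATII, 118 CPM (114 to 122) in keratin-high and 57.9 CPM (53.8 to 62.1) in ATI cells. All 4 intervals lay apart. The order of the ATII gates depended on the Lkb1 allele classes described further on. GFP-positive cells had the reverse order, 774 CPM in Lyz2-high and 638 CPM in Lyz2-reduced ATII, and Stk11-positive cells were at 153 and 167 CPM. ATII cells held 3.14-fold more Slpi than keratin-high cells (3.03 to 3.24) and 6.40-fold more than ATI cells (5.96 to 6.88). Endothelial cells (5.06 CPM) and fibroblasts (11.8 CPM) lay below all gates, and myeloid cells were at 2021 CPM. Slpi overlaps Mir7678 on the same strand.

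**Figure D1:**
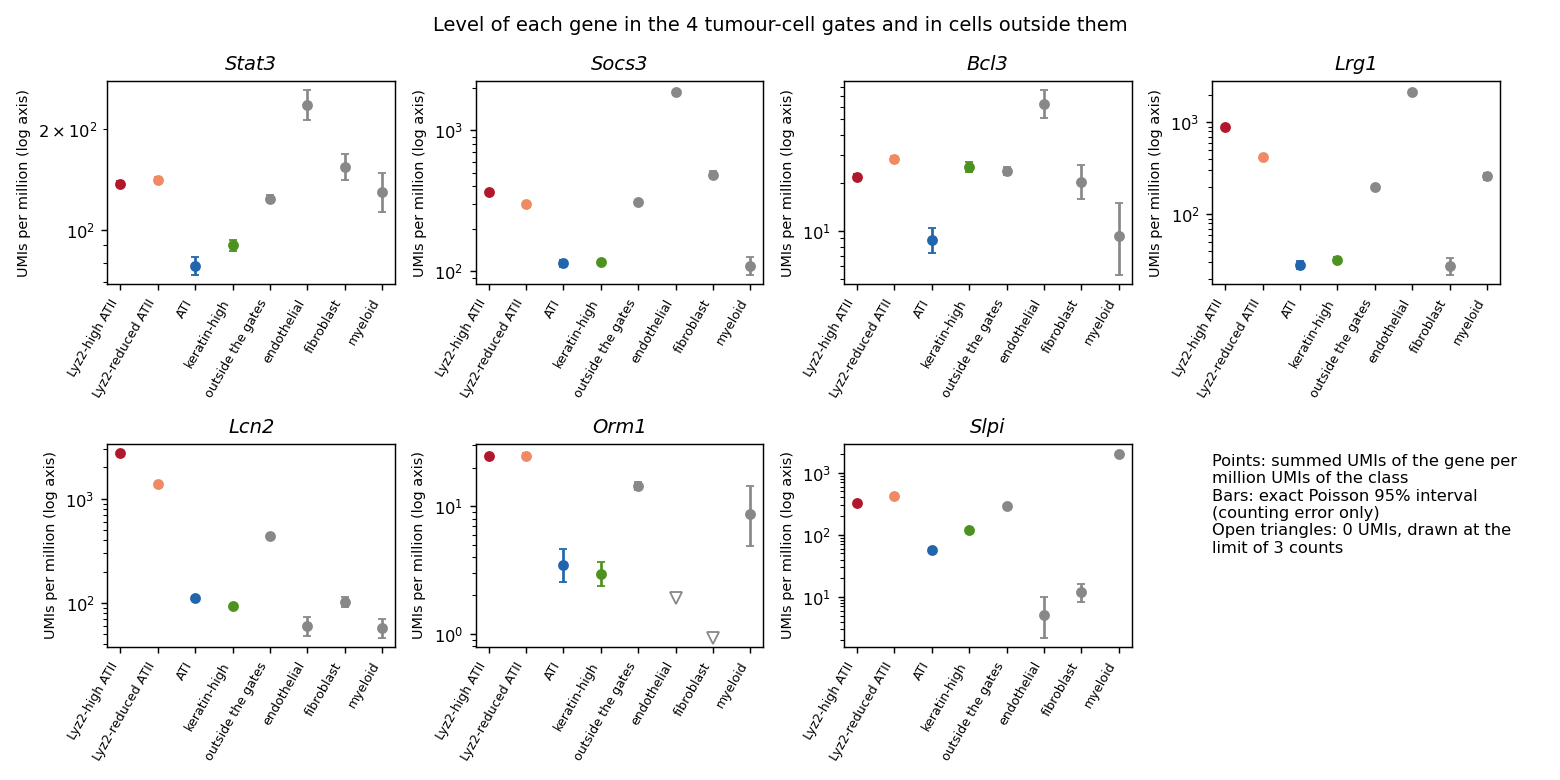
Level of each of the 7 members (CPM, log axis) in the 4 gates (colours) and in cells outside them, with the endothelial, fibroblast and myeloid cells on their own (grey), exact 95% Poisson intervals that cover counting error only and open triangles at the limit that 0 UMIs allow. Lrg1 and Lcn2 drop more than 10-fold from the ATII gates to ATI and keratin-high cells, Stat3 differs by less than 2-fold between gates, and Bcl3 in keratin-high cells (25.3 CPM) lies between its levels in the ATII gates.

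Counted by the 2-fold rule among genes with at least 10 CPM on either side, 5 of the 7 members were lower in keratin-high than in ATII cells, namely Socs3, Lrg1, Lcn2, Orm1 and Slpi. Of all 8369 genes, 5.17% were lower and 14.5% higher by this rule. In ATI cells 6 of 7 members were lower, all but Stat3, where 5.52% of 8309 genes were lower and 11.5% higher. Orm1 in both contrasts and Bcl3 in ATI cells reached 10 CPM only in ATII cells, so the filter fixed their direction. The members' median log2 ratio was −1.65 in keratin-high and −2.68 in ATI over ATII cells, beside 0.39 and 0.38 for all genes tested. Because the median gene was itself shifted, ratios were also set relative to it, and Stat3 then passed in both contrasts (log2 −1.01 in keratin-high and −1.21 in ATI cells). That scaling also moved the share of higher calls among all called genes from 73.7 to 47.8% for keratin-high and from 67.6 to 42.7% for ATI cells. These gate contrasts helped to choose the members, so nothing is read from their count against the background.

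Keratin-high and ATI cells differed from each other in 2 members. Slpi was 2.04-fold higher in keratin-high cells (1.89 to 2.21) and Bcl3 2.88-fold higher, among 6 members tested, where 6.23% of 8460 genes were higher and 4.18% lower. Bcl3 was at 8.77 CPM in ATI cells and reached 10 CPM only in keratin-high cells, so the filter fixed its direction. The Slpi call was lost with looser gates, where its log2 ratio was 0.32 and not 1.03, without cycling cells (0.93) and with the denominator that leaves out surfactant genes, Lyz2, Scgb and mitochondrial genes (0.98). It also took opposite directions by allele class, with 144 CPM in keratin-high and 86.0 CPM in ATI among GFP-positive cells and 29.3 and 46.7 CPM among Stk11-positive cells. Lcn2 was at 0.832 of its ATI level in keratin-high cells. Across 14 alternative settings its log2 ratio ran from −1.27 with stricter gates to 0.59 without the cells of the top doublet scores. The sign was kept in 11 of them and not in the others, so the main settings fix no direction. For Lrg1 the ratio was 1.12 (0.998 to 1.27) and for Socs3 1.03 (0.966 to 1.09), both with intervals that include equality. Stat3 was 1.16-fold higher in keratin-high cells (1.08 to 1.24).

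Within ATII cells the members parted with Lyz2. Lrg1 was 2.10-fold higher in Lyz2-high cells (2.07 to 2.12), the only member past 2-fold, where 0.169% of 7684 genes were higher and 1.03% lower. By allele class it was past 2-fold in GFP-positive cells, 1162 and 374 CPM, and not in Stk11-positive cells, 744 and 464 CPM. Lcn2, at 1.97-fold (1.95 to 1.98), lay just under it, with 3304 and 1260 CPM in GFP-positive and 2575 and 1660 CPM in Stk11-positive cells, and both crossed this limit with the settings described at the end. Socs3 was 1.23-fold higher (1.21 to 1.25). Stat3 had a ratio of 0.977 (0.951 to 1.00). Orm1 had a pooled ratio of 0.994, but was at 30.8 and 23.2 CPM in GFP-positive and at 24.8 and 33.7 CPM in Stk11-positive cells. Slpi (0.767) and Bcl3 (0.772) were lower in Lyz2-high cells over the pooled classes. Slpi was not lower within GFP-positive cells, and Bcl3 was at 20.7 and 21.4 CPM in Stk11-positive and at 26.6 and 30.7 CPM in GFP-positive cells. The median log2 ratio was −0.01 for the members and −0.19 for all genes. Other lists moved with this contrast. All 7 proliferation genes tested were lower in Lyz2-high cells, and the list summed to 37.8 CPM there and 165 CPM in Lyz2-reduced cells. None of them reached 10 CPM in Lyz2-high cells, so the filter fixed their direction. The macrophage marker Chil3 was at 12.1 and 0.874 CPM, and the fibroblast marker Mgp at 7.65 and 35.3 CPM. The neutrophil marker Retnlg stood at 23.3 and 14.6 CPM, where all 9 neutrophil markers summed to 24.6 and 15.2 CPM. Without cycling cells the log2 ratio was 1.09 for Lrg1 and 0.99 for Lcn2, and without cells of other types 0.90 for both, so that Lrg1 lost its call. That exclusion kept only 2311 of 3429 Lyz2-high and 2051 of 3546 Lyz2-reduced cells, mostly through its ciliated list. With the ciliated list left out, 3387 and 3502 cells remained.

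The rise of Lcn2 and Lrg1 with Lyz2 was graded rather than set by the limit of 100. Lrg1 was at 228 CPM in ATII cells with under 10 Lyz2 per 10000 UMIs, 418 CPM at 10 to 25, 638 CPM at 75 to 100, just outside the limit, 767 CPM at 100 to 150, just inside it, and 1052 CPM at 300 and over. Lcn2 stood just outside the limit at 2024 CPM and just inside it at 2382 CPM, and reached 3497 CPM in the last bin. Slpi first went up, from 407 CPM at under 10 Lyz2 to 473 CPM at 25 to 50, and then down to 292 CPM at 300 and over. The bins pool the allele classes, whose shares change with Lyz2, and in GFP-positive cells Slpi was at 638 CPM in Lyz2-reduced and 774 CPM in Lyz2-high ATII cells. Stat3 stayed between 127 and 150 CPM over all bins.

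Along the keratin axis the secreted members fell before the limit of 50 Krt8 plus Krt18 was reached. Lcn2 went from 1913 CPM at under 5 keratin UMIs per 10000 to 721 CPM at 20 to 35, 336 CPM at 35 to 50 and 115 CPM at 50 to 75, and ended at 15.6 CPM at 150 and over. Lrg1 stood at 92.1 CPM just outside and 31.8 CPM just inside the limit. Slpi held its level up to 20 (409 CPM at 10 to 20) and then went from 194 CPM just outside to 146 CPM just inside and 43.0 CPM in the last bin. Bcl3 stayed between 20.8 and 27.7 CPM over all bins.

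Toward the ATI gate the picture was alike. In cells under the keratin limit, Lcn2 was at 2064 CPM with under 1 Hopx per 10000, 260 CPM at 10 to 15, just outside the gate, and 137 CPM at 15 to 25, just inside it. Slpi went from 360 CPM in the first to 20.5 CPM in the last Hopx bin. Across the Sftpc limit of 500, in cells with under 2 Hopx, Lcn2 was at 505 CPM just outside and 1201 CPM just inside.

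**Figure D2:**
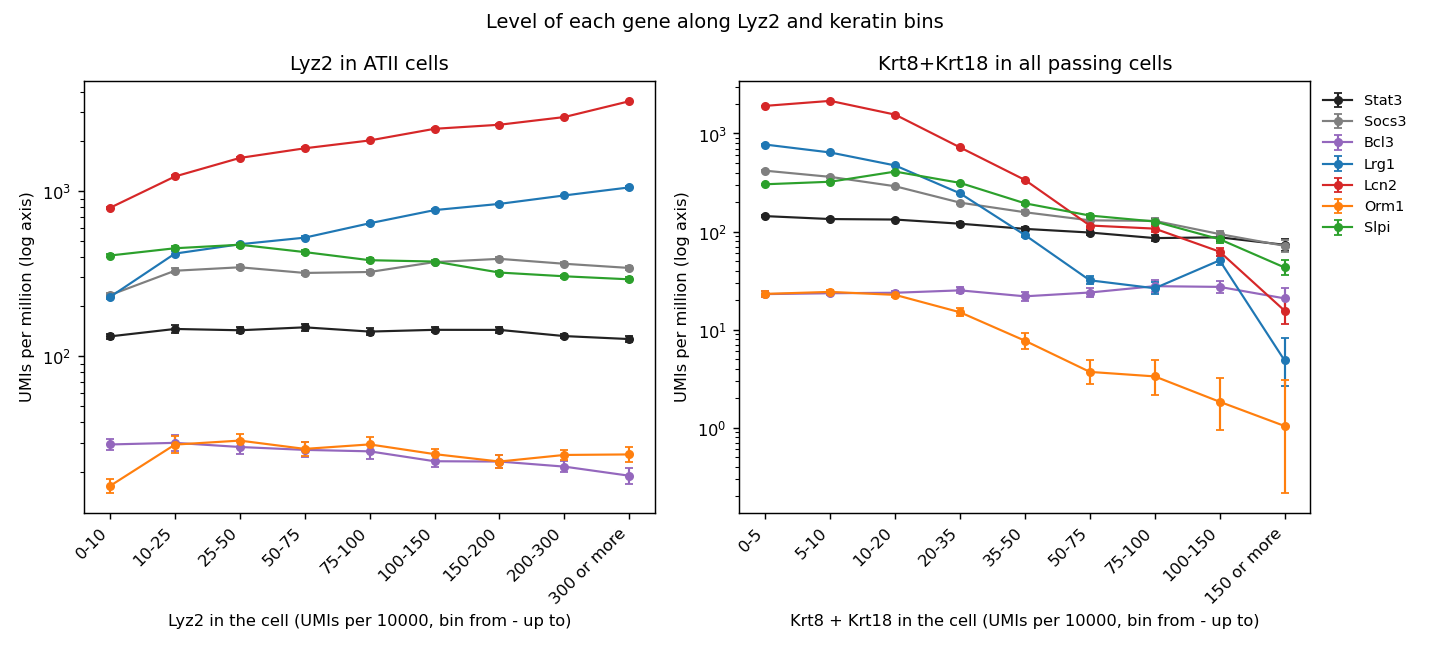
Level of the members (CPM, log axis) in bins of Lyz2 within ATII cells and in bins of Krt8 plus Krt18 over all passing cells, both in UMIs per 10000, with exact 95% Poisson intervals. Lcn2 and Lrg1 climb across the Lyz2 limit of 100 without a step and are lower past the keratin limit of 50, and Bcl3 is level along the keratin axis.

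In the ATI and keratin-high gates the secreted members differed with Sftpc. Among ATI cells, the 259 with at least 500 Sftpc held 235 CPM of Lcn2 and the 697 with less held 42.2 CPM. Lrg1 was at 63.5 and 8.88 CPM in the same cells. In keratin-high cells, the 165 with at least 500 Sftpc held 418 CPM of Lcn2, 123 CPM of Lrg1 and 267 CPM of Slpi, where the other 1018 held 37.5, 16.6 and 92.8 CPM. The difference was smaller for Slpi than for Lcn2 or Lrg1. Of the keratin-high cells, the 127 with at least 15 Hopx had 21.1 CPM of Slpi and 9.36 CPM of Bcl3, against 125 and 26.5 CPM in the 1056 with less.

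Shares of cells with at least 1 UMI were counted after each cell was thinned to 5000 UMIs, which kept 11084 of the 12183 cells. It left out 37 Lyz2-high ATII, 166 Lyz2-reduced ATII, 115 ATI and 93 keratin-high cells. Endothelial cells (median depth 9488 UMIs, 78 kept) and fibroblasts (16991 UMIs, 151 kept) gave the background. Among the 4 gates, all 7 members had their highest share in an ATII gate, also unthinned. Outside the gates, thinned shares in endothelial cells were 19.2% for Bcl3 (exact interval 11.2 to 29.7%), 65.4% for Stat3, 91.0% for Socs3 and 97.4% for Lrg1, each above the value in every gate, and 83.3% of myeloid cells had a UMI of Slpi.

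Lcn2 was found in 98.2% of thinned Lyz2-high ATII cells (unthinned 99.7%) and 82.2% of Lyz2-reduced ATII cells (89.2%). In ATI cells it was found in 14.5% (22.1%) and in keratin-high cells in 12.6% (27.9%). Endothelial cells gave 19.2% (20.0%) and fibroblasts 10.6% (18.3%), so the thinned shares over all ATI or keratin-high cells did not stand above background. Part of these gates held more, since with at least 500 Sftpc the keratin-high cells had 418 CPM and the ATI cells 235 CPM of Lcn2. The reference levels were 59.4 CPM in endothelial cells and 102 CPM in fibroblasts. Lcn2 UMIs in keratin-high cells were not even over cells, as the richest 10% held 93.6% of them, with up to 53 of 5000 in a cell. In Lyz2-high ATII cells the richest 10% held 31.0%.

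Lrg1 was found in 73.4% of Lyz2-high and 44.2% of Lyz2-reduced ATII cells (unthinned 88.5 and 58.1%). Its share was 4.16% in ATI (2.92 to 5.74) and 5.50% in keratin-high cells (4.23 to 7.03), unthinned 7.74 and 14.7%. The fibroblast share was 1.99% (0.412 to 5.70), which overlaps both, so these low shares were not distinguishable from background at this depth. Orm1 was found in 8.76 and 7.69% of the ATII gates, in 1.07% of ATI and in 1.28% of keratin-high cells (unthinned 28.1, 21.9, 3.56 and 5.33%). Fibroblasts had Orm1 in 0 of 151 cells, which allows a share of up to 1.99% by the limit of 3 counts and 2.41% by the exact interval.

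Slpi behaved differently from Lcn2 at low levels. It was found in 48.2% of Lyz2-high ATII, 56.7% of Lyz2-reduced ATII, 20.7% of keratin-high (18.4 to 23.3) and 10.2% of ATI cells (8.26 to 12.5). Unthinned shares were 77.3, 74.7, 40.7 and 19.7%. Endothelial and fibroblast cells gave 3.85% and 5.30% (0.800 to 10.8 and 2.31 to 10.2), below keratin-high cells, while the ATI interval overlapped both. Socs3 was found in 68.4, 57.5, 33.9 and 25.6% of Lyz2-high ATII, Lyz2-reduced ATII, keratin-high and ATI cells (unthinned 90.7, 79.8, 64.5 and 40.2%), and Stat3 in 48.9, 49.2, 37.6 and 30.4% (unthinned 89.997, 83.8, 76.4 and 54.0%). Endothelial cells and fibroblasts express both, with Socs3 in 91.0 and 59.6% and Stat3 in 65.4 and 52.3%, and give no background for them.

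The variance of thinned counts over their mean differed between members. At 5000 UMIs a cell, the variance of Lcn2 over its mean was 10.2 in Lyz2-high and 10.1 in Lyz2-reduced ATII, where pure counting gives 1, and that of Lrg1 8.06 and 8.15. Slpi had 5.83 and 5.17. Socs3 had 2.54 and 2.93, and Stat3, at 1.21 and 1.22, and Bcl3, at 1.01 and 1.13, lay near the value of pure counting. This ratio rises with the mean count, which was 12.7 and 6.25 UMIs for Lcn2 and 0.730 and 0.747 for Stat3. It therefore does not rank the members by their spread.

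Lrg1 and Lcn2 varied together. Over 8703 gated and thinned cells, Pearson's r of log-scaled counts, centred on the mean of each gate, was 0.509 between Lrg1 and Lcn2, and within single gates it ran from 0.448 in keratin-high to 0.547 in Lyz2-reduced ATII cells. For Lcn2 and Slpi r was 0.211 over the gated cells, 0.274 in ATI and 0.341 in keratin-high cells, and for Lrg1 and Slpi it was 0.1315 over the gated cells. Stat3 had an r of 0.0771 with Socs3, from 0.0554 to 0.0851 within gates, and of 0.0008 with Lcn2. Socs3 and Lcn2 had an r of 0.0050 over the gated cells, but −0.0774 in Lyz2-high ATII and 0.225 in ATI cells. The cells share a library pool and thinned depth but not a known mouse, so these values describe the pooled cells and carry no p.

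Sorting the thinned ATII cells by their Lcn2 UMIs shows the same order. Of 663 cells with 0 Lcn2 UMIs, 8.14% had Lrg1, and the share was 40.4% at 1 to 4 UMIs, 63.9% at 5 to 9, 79.5% at 10 to 19, 90.7% at 20 to 39 and 98.7% of the 155 cells with 40 and over. Slpi went from 46.0 to 69.0% and Orm1 from 3.62 to 20.6% between the first and the last bin. Socs3 went from 48.1% to 67.4% at 5 to 9 UMIs and back to 58.1%. Stat3 stayed between 46.3 and 50.2% in all 6 bins.

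**Figure D3:**
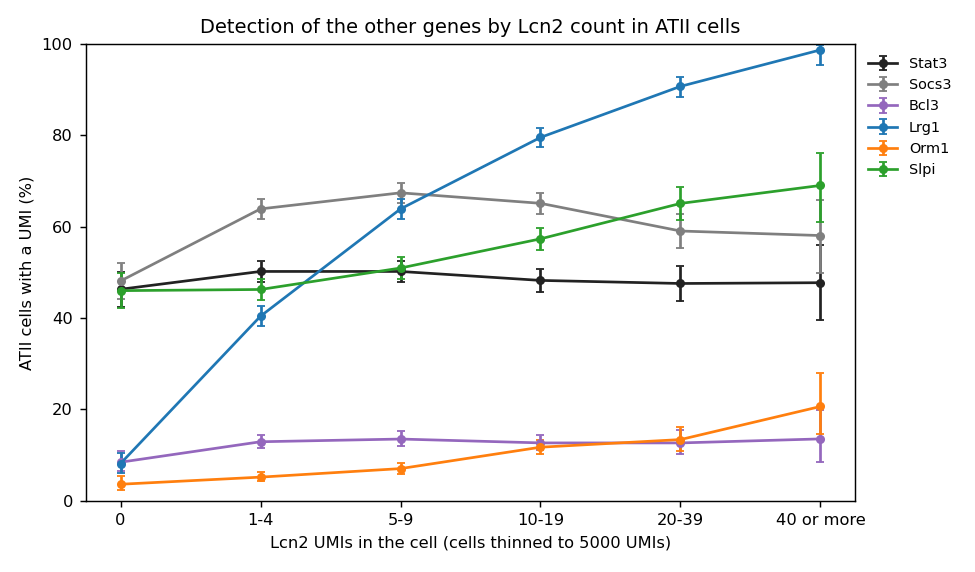
Share of thinned ATII cells with at least 1 UMI of the other 6 members (percent) against the cell's Lcn2 UMIs of 5000, with exact 95% binomial intervals. The Lrg1 share climbs from 8.14 to 98.7%, and the Stat3 share stays between 46.3 and 50.2%.

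Genes whose pattern was most like a member were ranked by r over 5638 genes in the same 8703 cells. For Lcn2 they were Chil1 (0.546), Lrg1 (0.509), Cxcl15 (0.453), Trf (0.426) and Lyz2 (0.395). Lrg1 came with Lcn2 (0.509), Chil1 (0.390), Trf (0.347), Itih4 (0.316) and Cxcl15 (0.242). Chil1 is a chitinase-like secreted protein, Cxcl15 a lung chemokine, Trf the iron carrier transferrin and Itih4 an acute-phase inhibitor family member. Socs3 came with a separate group, Zfp36 (0.338), Junb (0.332), Gadd45g (0.307), Gem (0.291) and Fos (0.277), several of which are immediate-early genes. For Slpi the leading genes were Pmvk (0.285), Tgfbi (0.259), TdTomato (0.241), Sftpd (0.238) and Ptprn (0.218). These values were centred on the gate and not on the allele class, and in Lyz2-high ATII cells Pmvk, Tgfbi and Ptprn were 5.22-, 6.52- and 8.34-fold higher with GFP, beside 5.06-fold for Slpi. The values for Stat3 and Bcl3 were low, and no pattern is read from them. Stat3 came with Neat1 (0.134), Egr1 (0.131), Zfp36 (0.113), Fosb (0.112) and Jund (0.109), where the 99th percentile over all genes was 0.068. Bcl3 came with Malt1 (0.0741), Il33 (0.0710), Gclc (0.0690), Mirg (0.0641) and Pim1 (0.0631), with a 99th percentile of 0.0388. For Slpi that percentile was 0.101. Orm1 was too low to rank.

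Cells were also split by the transcript of the Lkb1 allele into 3360 GFP-positive cells with no Stk11 UMI and 3367 Stk11-positive cells with no GFP UMI, 29 cells having both and 5427 neither. The classes name transcripts, not mice or treatment, and differences between mice and between allele states cannot be told apart in them. The gates held them unevenly, with 594 GFP-positive and 1516 Stk11-positive cells in Lyz2-high ATII, 1148 and 837 in Lyz2-reduced ATII, 242 and 266 in ATI and 642 and 165 in keratin-high cells. Values are therefore given within gates. Median depth was 24516.5 UMIs in GFP-positive, 23635 in Stk11-positive and 12780 in cells with neither.

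Slpi was higher in GFP-positive cells of every gate. In Lyz2-high ATII it was at 774 CPM in GFP-positive and 153 CPM in Stk11-positive cells, a ratio of 5.06 (4.92 to 5.22). In Lyz2-reduced ATII the levels were 638 and 167 CPM, a ratio of 3.81 (3.67 to 3.95). In keratin-high cells they were 144 and 29.3 CPM, a ratio of 4.92 (4.14 to 5.89), and in ATI cells 86.0 and 46.7 CPM, a ratio of 1.84 (1.55 to 2.19) that did not reach 2-fold. Cells with neither transcript lay between the classes in the ATII and keratin-high gates, at 294, 378 and 102 CPM, and at 41.9 CPM in ATI cells. In thinned cells the share with Slpi was 79.2 and 38.1% in Lyz2-high ATII, 72.8 and 38.3% in Lyz2-reduced ATII, 24.1 and 9.20% in keratin-high and 13.9 and 8.56% in ATI cells. Myeloid cells are rich in Slpi, and their marker Chil3 was at 29.4 CPM in GFP-positive and 5.75 CPM in Stk11-positive Lyz2-high ATII cells, beside 18907 CPM in myeloid cells. Proliferation genes were higher with GFP, 3 of 4 tested in Lyz2-high and 9 of 9 in Lyz2-reduced ATII. None of them reached 10 CPM in Stk11-positive Lyz2-high ATII cells, so the filter fixed their direction there. In keratin-high cells 1 of 7 was higher and 3 were lower, and the list summed to 106 CPM with GFP and 185 CPM with Stk11. Fibroblast markers summed to 31.9 and 141 CPM in Lyz2-reduced ATII, and club cell markers were lower with GFP in every gate. Retnlg was at 10.1 and 0.215 CPM in keratin-high cells. All 9 neutrophil markers summed to 10.7 and 0.862 CPM there, and S100a9, Csf3r, Ly6g and Ngp had no UMI in either class. Without cycling cells the log2 ratio of Slpi was 2.33 in Lyz2-high ATII, 1.88 in Lyz2-reduced ATII, 0.88 in ATI and 2.33 in keratin-high cells, and without cells of other types 2.61, 2.08, 0.73 and 3.68.

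Among the members tested, Slpi was the only one past 2-fold in the direction of GFP in Lyz2-high ATII, Lyz2-reduced ATII and keratin-high cells. The background was 1.39% of genes higher and 0.496% lower in Lyz2-high ATII, 1.98 and 0.698% in Lyz2-reduced ATII, and 2.46 and 2.34% in keratin-high cells. In ATI cells no member was higher and 2 of 6 tested, Lrg1 and Lcn2, were lower, where 1.54% of genes were higher and 1.08% lower. Over all passing cells Slpi alone was higher (ratio 3.02), with 2.61% of genes higher and 1.39% lower. Markers of other cells moved in that contrast too, with 5 of 5 fibroblast, 4 of 4 macrophage and 5 of 6 club cell markers lower with GFP and 8 of 8 proliferation genes higher. Of the tumour-state markers, 8 of 10 keratin-high transitional markers were higher and 3 of 12 ATII markers lower. The part of these lists in the ratio was not tested. The members' median log2 ratio was 0.36 in Lyz2-high ATII, −0.31 in Lyz2-reduced ATII, −0.14 in ATI and 0.39 in keratin-high cells, beside 0.11, 0.15, 0.12 and 0.02 for all genes.

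Lrg1 and Lcn2 had no common direction between the allele classes. Lrg1 was at 1162 CPM in GFP-positive and 744 CPM in Stk11-positive Lyz2-high ATII cells (ratio 1.56), and at 374 and 464 CPM in Lyz2-reduced ATII cells (0.805). Lcn2 was at 3304 and 2575 CPM in Lyz2-high (1.28) and at 1260 and 1660 CPM in Lyz2-reduced ATII cells (0.759). In ATI cells both were lower with GFP, Lrg1 at 13.8 and 48.3 CPM and Lcn2 at 68.1 and 196 CPM. With looser gates the log2 ratio of Lrg1 went from −1.81 to −0.41 and that of Lcn2 from −1.53 to −0.77, and neither was called. With Sftpc under 500 the log2 ratio of Lrg1 was −0.87, also not called. The same ATI cells differed in ATII transcripts, with Lyz2 at 295 and 1584 CPM and Sftpc at 39773 and 62157 CPM, and their part in the result was not tested. The thinned ATI shares were 2.52 and 7.78% for Lrg1 and 10.1 and 20.2% for Lcn2, beside 1.99 and 10.6% in fibroblasts. In keratin-high cells Lrg1 stood at 31.1 and 20.0 CPM and Lcn2 at 83.9 and 65.9 CPM, and both log2 ratios took either sign across the settings, from −0.05 to 3.43 for Lrg1 and from −0.13 to 2.45 for Lcn2.

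No regulator passed 2-fold between the classes in any gate. Socs3 was lower with GFP in both ATII gates, at 288 and 398 CPM in Lyz2-high (ratio 0.722) and 251 and 362 CPM in Lyz2-reduced cells (0.693). In ATI cells its ratio was 0.888 (0.781 to 1.01), and in keratin-high cells it was higher with GFP, 124 and 92.2 CPM. Stat3 had ratios of 1.06, 1.02, 1.14 and 1.18 in Lyz2-high ATII, Lyz2-reduced ATII, ATI and keratin-high cells. Bcl3 had ratios of 1.28, 1.44, 0.924 and 1.06. Orm1 rested on 8 and 26 UMIs in ATI and on 61 and 5 UMIs in keratin-high cells.

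**Figure D4:**
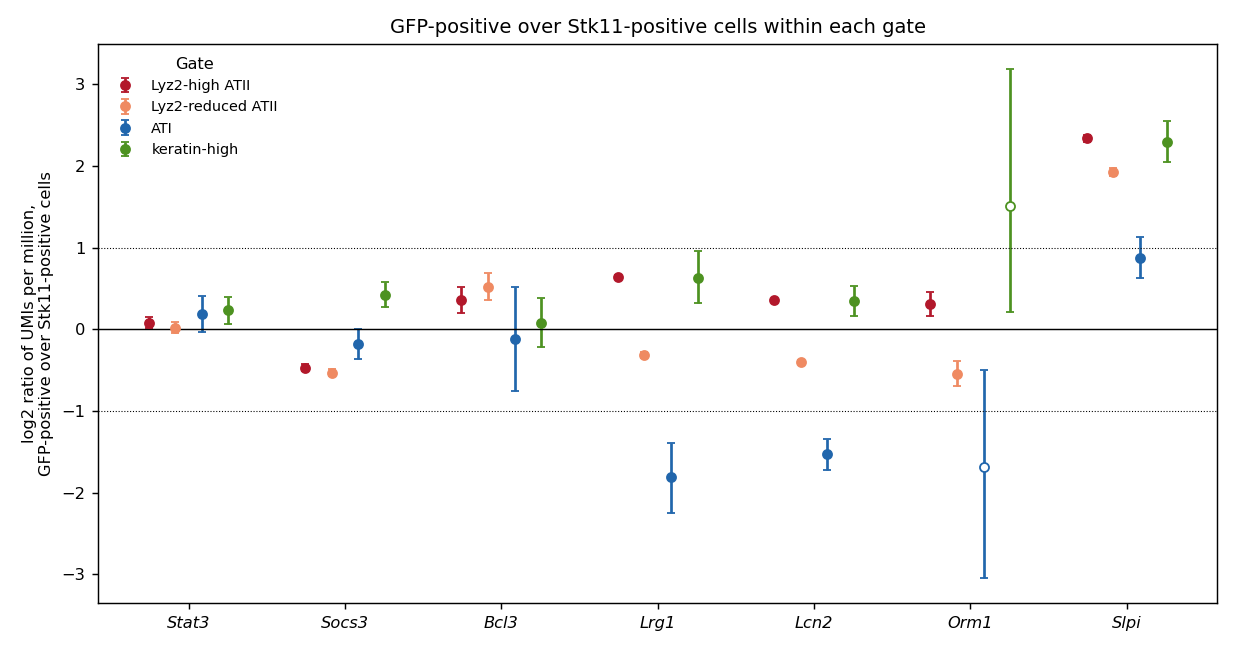
Log2 ratio of the level of each member in GFP-positive over Stk11-positive cells within the 4 gates (colours), with exact 95% conditional binomial intervals, dotted lines at 2-fold and open points where neither class reached 10 CPM. Slpi is higher with GFP in all 4 gates, from 1.84-fold in ATI to 5.06-fold in Lyz2-high ATII cells, and Lrg1 and Lcn2 change direction between gates.

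The pathway around the members was read from lists of its parts, counted by the same 2-fold rule and read beside the shares of all genes called, 14.5% higher and 5.17% lower in keratin-high and 11.5% higher and 5.52% lower in ATI cells. Of 12 ligands of the family, 3 reached 10 CPM in keratin-high or ATII cells. Lif, a cytokine that signals through gp130, was at 74.9 CPM in keratin-high and 3.22 CPM in ATII cells, and Clcf1 at 13.3 and 4.75 CPM. Il6 was lower, 7.21 and 14.9 CPM, and was at 2.55 CPM in ATI cells. Of 5 receptors tested none was higher and 2 were lower in keratin-high cells, Lifr (6.36 and 21 CPM) and Osmr (14.2 and 29.1 CPM). The shared subunit Il6st differed little (38.3 and 36.5 CPM). Of keratin-high and ATII cells, Lif and Clcf1 reached 10 CPM only in the first and Il6 and Lifr only in the second. The filter thus fixed their directions.

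None of 6 kinases and STAT factors tested was called in keratin-high or in ATI cells over ATII. Of 15 inhibitors of the pathway tested, 2 were lower in keratin-high cells, Socs3 and Socs2 (152 and 317 CPM). In ATI cells Socs3 was lower and Pias1 higher (130 CPM, against 36.6 CPM in ATII). Of 26 genes known to respond to STAT3, 7 were higher and 4 lower in keratin-high cells, with a median log2 ratio of 0.20, beside 0.39 for all genes. Without the members 7 of 24 were higher and 3 lower, with a median of 0.40. The higher ones included the receptor Tnfrsf12a (649 and 94.1 CPM), the protease inhibitor Timp1 (15.8 and 0.557 CPM) and Myc (26.6 and 5.64 CPM), and the lower ones Cebpd (90.8 and 264 CPM) and Zfp36 (171 and 429 CPM). Timp1 and Myc were under 10 CPM in ATII cells and were tested only through keratin-high cells, which fixes their direction. In ATI cells 1 of 24 was higher and 8 were lower, with a median of −0.08, beside 0.38 for all genes. Without the members 1 of 22 was higher and 6 were lower.

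Several acute-phase genes were lower outside ATII cells, as were the ATII markers. Of 39 listed, 12 were tested in keratin-high over ATII cells and 10 were lower and none higher, with a median log2 ratio of −2.75, beside 0.39 for all genes. Of these, Orm1, Itih4 and Steap4 were under 10 CPM in keratin-high cells and were tested only because they were high in ATII cells, which fixes their direction, and 7 of the 9 others were lower. In ATI cells 12 of 12 were lower, of which 5 (C3, Cd14, Itih4, Orm1 and Steap4) were tested only through ATII cells. The list also holds members, which these contrasts helped to choose. With the members left out instead, 7 of 9 were lower in keratin-high cells (median −2.27) and 9 of 9 in ATI cells (median −3.72). The share of all genes lower was 5.17% in keratin-high and 5.52% in ATI cells. Of the ATII markers 11 of 12 were lower in each contrast, with medians of −2.65 and −2.26. The acute-phase genes that were lower included the iron carrier Trf (99.5 CPM in keratin-high, 1070 CPM in ATII), the inhibitor family member Itih4 (5.51 and 138 CPM), complement C3 (13.2 and 70.6 CPM), the lipopolysaccharide-binding protein Lbp (54.7 and 264 CPM) and haptoglobin, Hp (341 and 933 CPM). The metallothioneins Mt1 and Mt2 were not called in keratin-high cells.

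Other antiproteases did not all go with Slpi. Of 10 tested antiproteases and secreted antimicrobials, 5 were lower in keratin-high cells, including the lysozyme genes Lyz1 (0.978 and 69.9 CPM) and Lyz2, Chia1, and the members Lcn2 and Slpi. Another 3 were higher, Serpinb9 (220 and 26.2 CPM), Wfdc1 (39.1 and 3.21 CPM) and Serpinb6b. Without the members 3 of 8 were higher and 3 lower, with a median log2 ratio of −0.02. Lyz1 reached 10 CPM only in ATII and Wfdc1 only in keratin-high cells, so the filter fixed their directions. Of 18 NF-kB genes tested, 6 were higher, among them Nfkb2 (39.4 and 10.7 CPM) and Relb (45.6 and 14.5 CPM), and 1 was lower, Nfkbiz (27.0 and 64.0 CPM). Bcl3, of the same inhibitor family as Nfkbie and Nfkbiz, was not called.

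**Figure D5:**
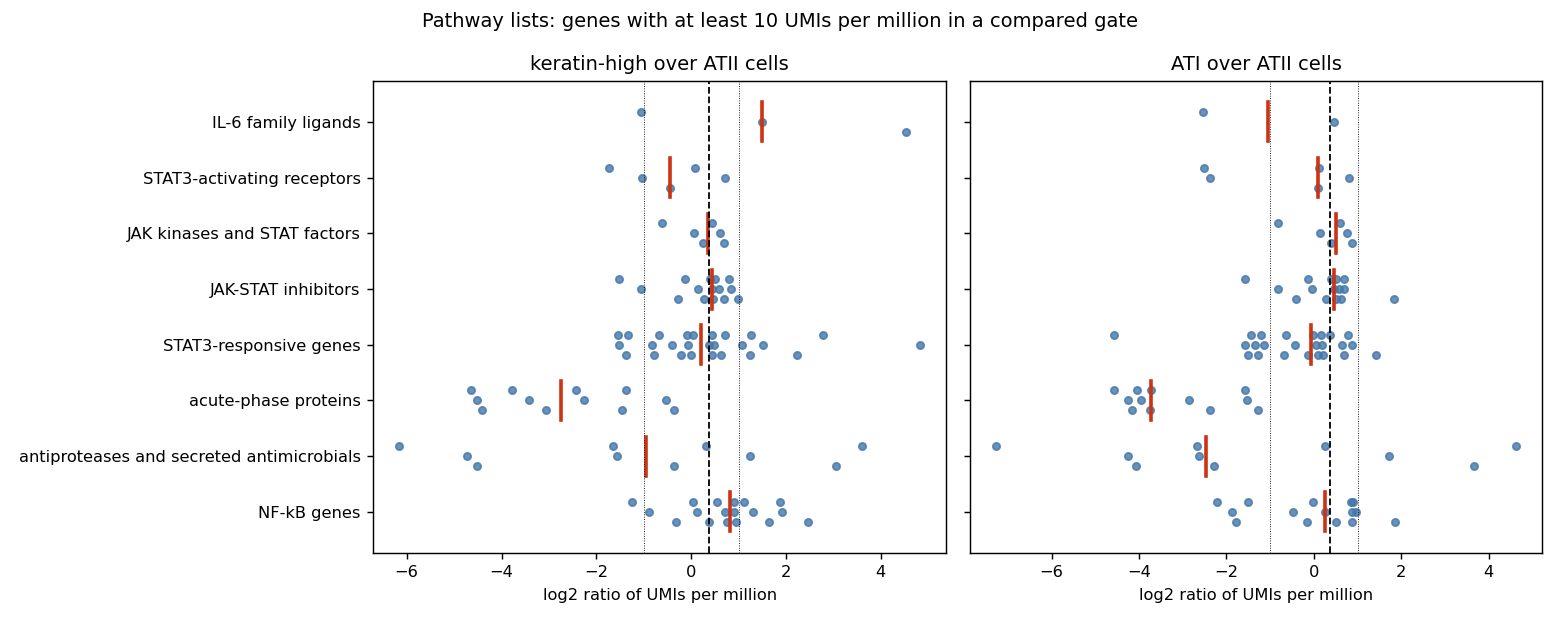
Log2 ratio of each tested gene of the pathway lists in keratin-high over ATII cells and ATI over ATII cells, with a red bar at the median of each list, a dashed line at the median of all genes tested and dotted lines at 2-fold. The acute-phase list, which includes members chosen from these contrasts, has its median at −2.75 in keratin-high and −3.74 in ATI cells. Without the members the medians are −2.27 and −3.72. The kinases and STAT factors lie between the 2-fold limits.

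Between the allele classes, Il6 was higher with GFP, at 24.7 and 10.2 CPM in Lyz2-high and 19.5 and 8.74 CPM in Lyz2-reduced ATII cells. The receptor gene Cntfr was at 10.4 and 1.87 CPM in Lyz2-reduced ATII and 11.2 and 0.680 CPM in ATI cells, the latter from 3 UMIs. Il6 in Lyz2-reduced ATII cells and Cntfr in both gates reached 10 CPM only with GFP, so the filter fixed their direction. Lifr was lower with GFP, 14.7 and 24.4 CPM in Lyz2-high and 14.1 and 25.9 CPM in Lyz2-reduced ATII cells, a difference under 2-fold. None of 12 acute-phase genes tested was called in either ATII gate. In ATI cells 5 of 9 were lower with GFP, and 3 of 7 without the members, where 1.08% of all genes and 5 of 12 ATII markers were lower. In keratin-high cells 2 of 9 were higher and none lower, where 2.46% of all genes were higher and 2.34% lower. Of 19 NF-kB genes tested in keratin-high cells 4 were lower with GFP and none higher, with a median log2 ratio of −0.49. The neutrophil chemokines Cxcl1 (30.4 and 283 CPM) and Cxcl2 (5.94 and 59.0 CPM) were among the 4. Cxcl2 reached 10 CPM only with Stk11, so the filter fixed its direction.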

How the data were processed

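The deposited matrix holds whole-number UMI counts per gene and cell, made by the authors with Cell Ranger 3.0.2 (per the file headers) on mm10, with 16017 cells of 6 mice pooled. Of 31055 features, 30934 were matched by ID to GENCODE M21. Filters, gates, thinning to 5000 UMIs (seed 42), levels and ratios were computed in Python 3.11.15 with numpy 2.4.6, scipy 1.17.1 and pandas 2.3.3, after the scripts had been tested on simulated data. Intervals are exact 95% Poisson (levels), conditional binomial (ratios) and Clopper-Pearson (shares). UMIs remove amplification copies but not differences between mice. A gene was tested at 10 CPM or more in either class and called at 2-fold. Scrublet in scanpy 1.11.5 called 0 of 12183 cells as doublets at its automatic threshold. That call was not relied on, and the top 6% of scores, 731 cells, were removed only as an alternative. The endothelial, fibroblast and myeloid reference cells had at least 10, 50 and 10 UMIs per 10000 of their markers.

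Members, gates and gene lists were chosen with earlier results of these data known. By rule, the text names all members, up to 3 tested genes per list and direction with the largest ratios, and the 5 genes most like each member with at least 20 CPM. Zfp36, Relb, Chia1 and the acute-phase examples other than Itih4 were chosen for the keratin-high contrast after their values were seen. Alternatives changed gate limits, thresholds, scaling, cell weights, depth and excluded cells. Promoters are from RefSeq (GRCm38.p6).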

Additional observations from a re-analysis of the deposited data

Results flagged for a closer look

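The ratio of GFP-positive over Stk11-positive cells took opposite directions in different gates, with intervals that exclude 1 on both sides, for 4 members. In Lyz2-high ATII, Lyz2-reduced ATII, ATI and keratin-high cells, Lrg1 had ratios of 1.56, 0.805, 0.285 and 1.55. Lcn2 had ratios of 1.28, 0.759, 0.347 and 1.27 in the same order. Orm1 had ratios of 1.24, 0.687, 0.311 and 2.85, the last from 61 and 5 UMIs. Socs3 had ratios of 0.722, 0.693, 0.888 and 1.34. Bcl3, at 1.28, 1.44, 0.924 and 1.06, was below 1 in ATI cells with an interval that includes 1. The difference between gates was not tested, because the cells of all mice form 1 sample.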

How the results depend on the processing

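The counts of members lower in keratin-high (5) and ATI (6) than in ATII cells ran over 4 to 6 and 4 to 7, and among the 4 gates all 7 members had their highest share in an ATII gate at every thinning depth run and without thinning. In the contrast of Lyz2-high over Lyz2-reduced ATII the count of 1 became 2 with a 1.5-fold limit, a denominator without surfactant, Lyz2, Scgb and mitochondrial genes, equal cell weight, looser or stricter gates, thinning, and scaling to the median gene, and 0 with a 3-fold limit or without cells of other types. The 2 members higher in keratin-high than ATI cells became 1 with that denominator, with looser gates and without cycling cells, and 0 with a 3-fold limit. For GFP over Stk11, the 1 call became 3 over all passing cells and 2 in Lyz2-high ATII with a 1.5-fold limit. In ATI the 2 calls became 1 with a 3-fold limit or with Sftpc under 500, and 0 with looser gates. Slpi, not called there in the main settings, reached a log2 ratio of 1.11 with stricter gates, past 2-fold. In keratin-high cells the 1 call became 2 with a 1.5-fold limit, at least 2 UMIs of GFP or Stk11, or Sftpc under 500, and 3 with stricter gates or without cells of other types. The causes were not tested.

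Over all genes, called counts ran from 740 to 3626 around 1649 (keratin-high over ATII), 695 to 3331 around 1417 (ATI over ATII), 22 to 456 around 92 (Lyz2) and 396 to 1863 around 881 (keratin-high over ATI). For GFP over Stk11 they ran from 112 to 1258 around 323 over all cells, 46 to 583 around 141 in Lyz2-high and 61 to 794 around 211 in Lyz2-reduced ATII, 58 to 1105 around 216 in ATI and 123 to 1281 around 402 in keratin-high cells. Scaling to the median gene moved the share of higher calls from 14.1 to 38.6% (Lyz2), and for GFP from 65.3 to 48.3% over all cells, 73.9 to 59.2% in Lyz2-reduced ATII and 58.8 to 43.3% in ATI. The limit on Sftpc and the exclusion without the ciliated list were chosen after seeing the data, since the planned exclusion left 164 ATI and 261 keratin-high cells, against 951 and 1151. No paired analysis was possible because no file used here gives the mouse or replicate number of a cell, and so no mouse could be left out. Depth limits Orm1 and the low Lrg1 and Lcn2 shares.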
